A study of Mus musculus with 6 samples.

Results

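The transcripts of the mouse mitochondrial genome were followed in RNA sequencing of gastrocnemius, a fast calf muscle. They were taken by name, as the 37 genes of 57010 in the expression table whose symbol begins with mt-: 13 protein genes, 2 rRNAs and 22 tRNAs. The set itself was selected on the difference of its TPM between radiotherapy and control in these same samples, so that difference is described here and not tested as a finding. All 6 samples came from NOD/SCID/IL2Rγ-null (NSG) mice, which lack mature lymphocytes but keep neutrophils and macrophages, and all carried a subcutaneous left-flank xenograft, set in Matrigel, of MDA-MB-231 cells with Rab27a KD. MDA-MB-231 is a human breast cancer line, and Rab27a is a small GTPase of vesicle secretion. For the radiotherapy group (3 samples) only the tumour was irradiated at a volume of about 800 mm3 with 10 Gy of 6 MV X-rays in a single dose, and the muscle of the opposite leg was taken 3 days later. The control group (n = 3) bore the same tumour without irradiation. No tumour-free mouse and no mouse whose tumour lacked the knockdown is among these samples, and the labels do not say whether the knockdown line is a clone or whether the samples of a group are separate mice, so the spread between samples may be partly technical. The values are TPM (a relative transcript abundance), which correct for gene length and have the same total in every library, so sequencing depth was unknown.

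The mitochondrial genome is a small circle with no introns, transcribed from both strands as long precursors. The tRNAs lie between most of the other genes, and cutting them out frees the mRNAs and rRNAs. Every protein it encodes is a subunit of the respiratory chain: 7 belong to complex I, which takes electrons from NADH, 1 to complex III, 3 to complex IV, which passes electrons to oxygen, and 2 to complex V, the ATP synthase. Complex II and all other subunits are encoded in the nucleus. The rRNAs, the 12S (mt-Rnr1) and 16S (mt-Rnr2), form the mitochondrial ribosome. In the GENCODE M21 annotation, mt-Nd6 and 8 tRNAs are read from the light-strand promoter, and the 2 rRNAs, the other 12 protein genes and 14 tRNAs from the heavy-strand promoters. Muscle is rich in these transcripts, more so in slow oxidative than in fast fibres.

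Several of these genes cannot be counted separately, because their sequences overlap a neighbour or recur in the nucleus. The sequences below, written 5′ to 3′ from the GENCODE M21 transcripts (build GRCm38; the authors' notes name mm9, so no coordinates are given), show where. The end of mt-Atp8 and the start of mt-Atp6 are the same 43 bases, and the end of mt-Nd4l and the start of mt-Nd4 the same 7, here in capitals. The genes mt-Nd5 and mt-Nd6 face each other on opposite strands and share their last 14 bases, also in capitals.
mt-Atp8, whole: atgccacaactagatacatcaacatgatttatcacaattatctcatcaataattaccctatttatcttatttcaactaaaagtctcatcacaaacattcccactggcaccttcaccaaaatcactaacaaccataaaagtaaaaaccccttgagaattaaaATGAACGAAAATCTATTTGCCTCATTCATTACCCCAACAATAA
mt-Atp6, first 60 bases: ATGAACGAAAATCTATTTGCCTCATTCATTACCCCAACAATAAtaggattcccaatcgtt
mt-Nd4l, last 60 bases: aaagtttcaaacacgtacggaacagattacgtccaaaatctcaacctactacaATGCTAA
mt-Nd4, first 60 bases: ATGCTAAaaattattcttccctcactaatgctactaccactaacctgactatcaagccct
mt-Nd5, last 60 bases: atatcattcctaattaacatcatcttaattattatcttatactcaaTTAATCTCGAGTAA
mt-Nd6, last 60 bases: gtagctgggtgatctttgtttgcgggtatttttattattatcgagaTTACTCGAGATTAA

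A copy of part of the mitochondrial genome lies on nuclear chromosome 1, annotated as 7 neighbouring pseudogenes in mitochondrial gene order, with no other annotated gene between them. Compared base by base without gaps, 5 of the 7 did not differ from the mitochondrial gene anywhere along their length: Gm28661 from mt-Co2 (681 bases), Gm10925 from mt-Atp6 (678), Gm28437 from mt-Co3 (783), Gm10222 from mt-Nd4l (294) and Gm28439 from the first 876 bases of mt-Nd4. Gm28438 differed from mt-Nd3 at 1 of 345 bases, T3C, counted from the first base of the mitochondrial gene, with the mitochondrial base first. Gm29216 covers the last 492 bases of mt-Co1 and differed at 6 of them, T1056A, C1057T, A1059G, A1060G, C1062A and A1066T. The lines below show the end of the mt-Co2 pair, where the capitals mark the bases beyond the copy's end, and the start of the other 2 pairs, where the capitals mark the differing bases.
mt-Co2, last 60 bases: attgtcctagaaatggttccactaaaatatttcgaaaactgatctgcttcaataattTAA
Gm28661, last 57 bases: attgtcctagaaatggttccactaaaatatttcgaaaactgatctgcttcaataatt
mt-Nd3, bases 1 to 33: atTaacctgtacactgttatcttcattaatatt
Gm28438, bases 1 to 33: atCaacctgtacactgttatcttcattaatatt
mt-Co1, bases 1054 to 1096: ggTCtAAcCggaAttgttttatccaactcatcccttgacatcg
Gm29216, same span: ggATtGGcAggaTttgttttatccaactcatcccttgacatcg

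Of all 50-base windows along each gene, over 97% recurred in an annotated nuclear transcript for mt-Co2 (100%), mt-Co3 (99.9%), mt-Atp6 (99.5%), mt-Nd4l (98.8%) and mt-Nd3 (98.0%). The share was 62.2% for mt-Nd4 and 51.1% for mt-Co1, 8.19% for mt-Nd2, 7.61% for mt-Nd5 and 1.04% for mt-Rnr2. No window of mt-Nd1, mt-Atp8, mt-Nd6, mt-Cytb or mt-Rnr1 recurred. The values of those 5 genes therefore rest on sequence not found in an annotated nuclear transcript, apart from the overlaps above. The nuclear genome outside annotated transcripts was not searched, so a copy without annotation would have been missed.

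The 22 tRNAs, which are 59 to 75 bases long, were listed at 0 in all 6 libraries (132 of 132 values), and are not described further. The other 15 genes passed the filter for testing, which asks for 1 TPM or more in 3 or more samples, and their lowest single value was 524 TPM. The 13 protein genes made up 10.1, 13.4 and 8.71% of all TPM in controls 1, 2 and 3 and 18.7, 22.2 and 14.8% in radiotherapy 1, 2 and 3, so the groups did not overlap. The rRNAs made up 0.290, 0.322 and 0.217% in the controls and 0.187, 0.333 and 0.383% after radiotherapy, with the groups overlapping and radiotherapy 1 lowest. The share of mitochondrial mRNA was therefore higher in the radiotherapy libraries, while no difference in the rRNA share stood out from its spread. In whole muscle, more cells rich in mitochondria and more mitochondrial RNA per cell cannot be told apart, just as fewer cells of a type and less RNA per cell cannot.

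**Figure D1:**
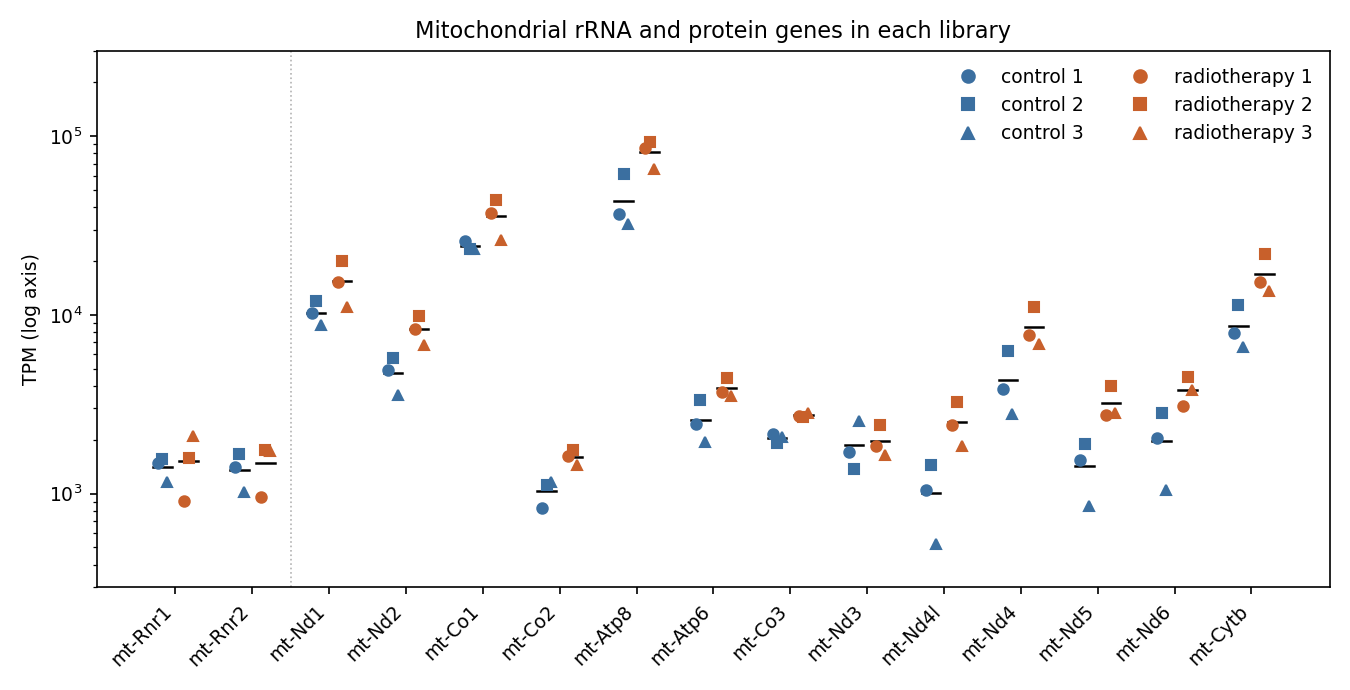
TPM (log axis) of the 2 rRNAs and 13 protein genes of the mitochondrial genome, in genome order. Each point is 1 library, blue for control and orange for radiotherapy, with the replicate number as its shape, and the black lines are group means (n = 3). For 11 of the 13 protein genes every orange point lies above every blue point, while for both rRNAs, mt-Nd1 and mt-Nd3 the groups overlap.

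Radiotherapy lay wholly above control for 11 of the 13 protein genes, meaning that its lowest value exceeded the highest control, and the groups overlapped for both rRNAs. Over all 11375 genes tested this held in 1.70%, and the reverse in 7.54%. The median log2 fold change of TPM + 1 (radiotherapy minus control) was 0.82 for the 13 genes, from 0.11 to 1.40, against −0.11 for all genes tested. In limma, a linear model fitted across all genes with Benjamini-Hochberg adjustment, 0 of the 15 passed at an adjusted p of 0.05 (adjusted p from 0.977 to 0.991). That fit called 0% of all genes. At an unadjusted p under 0.05 stood 12 of the 15 members and 3.82% of all genes. These counts come from the contrast the set was selected on and support nothing further. How far the groups stand apart moved with the scaling. After median-of-ratios scaling 7 of the 13 stood apart, where radiotherapy lay wholly above control in 5.14% and wholly below in 5.54% of all genes. After quantile normalization 8 did (5.21% and 5.22%), and with TPM rescaled to the total without mitochondrial genes and copies 11 did (8.24% above, and 228 of the 11375 genes below). The median of all genes was then −0.0014, −0.014 and 0.085, and all 13 protein genes had a positive difference under each of these 3 scalings. Of the 13 genes, 11 were highest in radiotherapy 2 and 10 lowest in control 3. Without radiotherapy 2 the median was 0.69. Radiotherapy 1 and 3 alone lay above all controls for 11 genes, a count that leaving out a library could not make smaller. Over all genes tested, 4.09% then lay wholly above control and 8.21% wholly below.

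Complex I has 7 of its subunits in the mitochondrial genome, and they form its membrane arm. Its genes had log2 fold changes from 0.11 to 1.40. For mt-Nd5, a large proton-pumping subunit, the controls gave 1541, 1904 and 847 TPM, and the radiotherapy libraries 2765, 3982 and 2829.7 TPM. The groups did not overlap, with control 3 lowest and radiotherapy 2 highest (log2 fold change 1.22, SE 0.30). Another pumping subunit, mt-Nd4, was at 3869, 6252 and 2783 TPM in the controls and 7736, 11083 and 6843 TPM after radiotherapy (1.04, SE 0.30), again with the groups apart. The gene mt-Nd2, for the third pumping subunit, was at 4934, 5701 and 3579 TPM in the controls and 8333, 9862 and 6734 TPM after radiotherapy (0.82, SE 0.22). The gene mt-Nd1, whose product helps form the site that binds ubiquinone, has no window in an annotated nuclear transcript. It was at 10175, 11877 and 8797 TPM in the controls and 15221, 20114 and 11119.5 TPM after radiotherapy (0.56, SE 0.23), and radiotherapy 3 lay inside the control range.

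The smallest complex I genes gave the largest and the smallest difference. For mt-Nd4l the values were 1049.5, 1444 and 524 TPM in the controls and 2433, 3235 and 1854 TPM after radiotherapy, with the groups apart (log2 fold change 1.40, SE 0.36). For mt-Nd3 they were 1699, 1378 and 2539 TPM in the controls and 1853, 2428 and 1647 TPM after radiotherapy, with the highest value in control 3 (0.11, SE 0.26, 95% interval −0.48 to 0.69). Nearly all of the sequence of both recurs in a nuclear copy.

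The light-strand gene mt-Nd6, also of complex I, was at 2042, 2806 and 1044 TPM in the controls and 3095, 4468 and 3789 TPM after radiotherapy. The groups did not overlap (log2 fold change 1.04, SE 0.34), and the order of the controls was that seen for mt-Nd5. Within each library mt-Nd6 stood at 1.33, 1.47 and 1.23 times the TPM of mt-Nd5 in the controls and at 1.12, 1.12 and 1.34 times after radiotherapy. Against the median of the 12 heavy-strand protein genes, its ratio was 0.647, 0.620 and 0.392 in the controls and 0.541, 0.626 and 0.740 after radiotherapy. These ratios overlapped between groups, so no shift between the strands stood out from the spread. Strandedness of the libraries is not given, and without it reads of mt-Nd6 and of the opposite strand there cannot be told apart.

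Complex III contributes mt-Cytb, cytochrome b, its only subunit encoded here and the core of its ubiquinol-oxidising site. It was at 7879, 11379 and 6603 TPM in the controls and 15197, 21813 and 13632 TPM after radiotherapy. The groups were apart (log2 fold change 0.98, SE 0.24), and no window of this gene recurred in an annotated nuclear transcript.

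Complex IV contributes 3 genes for its catalytic core, and their median log2 fold change was 0.53, against 1.04 for complex I. The gene mt-Co1, which carries the oxygen-binding centre, was at 25802, 23354 and 23203 TPM in the controls and 37096, 43761 and 26047 TPM after radiotherapy (log2 fold change 0.53, SE 0.19). Radiotherapy 3 exceeded control 1 by little. For mt-Co2, which takes electrons from cytochrome c, the values were 834, 1118 and 1165 TPM in the controls and 1618, 1742 and 1445 TPM after radiotherapy (0.63, SE 0.20). For mt-Co3, a structural core subunit, they were 2146, 1925 and 2061 TPM in the controls and 2730.4, 2676 and 2840.1 TPM after radiotherapy (0.43, SE 0.16), with the smallest SD relative to the mean of the 13 in each group. All 3 genes had their groups apart.

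Complex V contributes mt-Atp6, part of its proton channel, and mt-Atp8, a small subunit of its stator, translated from a shared mRNA. The gene mt-Atp8 was the highest of all 57010 genes by mean TPM, at 36454, 61162 and 32053 TPM in the controls and 85174, 92503 and 65215 TPM after radiotherapy (log2 fold change 0.95, SE 0.24). The gene mt-Atp6 was at 2446, 3352 and 1942 TPM in the controls and 3699, 4420.4 and 3511 TPM after radiotherapy (0.62, SE 0.22). In both the groups were apart, with control 2 the highest control. The TPM of mt-Atp8 was 14.9 to 18.2 times that of mt-Atp6 in the controls and 18.6 to 23.0 times after radiotherapy, although the 2 reading frames lie on 1 mRNA. At 204 bases mt-Atp8 is the shortest of the 13, and its share of their summed TPM was 39.6 ± 5.38% in control and 43.8 ± 1.99% after radiotherapy (SD, n = 3 each). Weighted by gene length, as reads are, complex V was 12.2 ± 2.51% and 13.7 ± 0.961% of the sum, in place of 41.9 ± 5.48% and 45.9 ± 2.03%. Without mt-Atp8 and mt-Nd4l the other 11 protein genes held 6.30 ± 0.825% of the TPM in control and 10.2 ± 2.31% after radiotherapy, still apart.

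For the rRNA genes no difference stood out from the spread. Both 95% intervals below include the 0.56 of mt-Nd1, so a difference of that size is not excluded. The 12S gene mt-Rnr1 was at 1484, 1566 and 1156 TPM in the controls and 914, 1571 and 2091 TPM after radiotherapy (log2 fold change 0.05, SE 0.30, 95% interval −0.62 to 0.73). The 16S gene mt-Rnr2 was at 1414, 1658 and 1015 TPM in the controls and 958, 1756 and 1738 TPM after radiotherapy (0.10, SE 0.29, 95% interval −0.55 to 0.75). Radiotherapy 1 held the lowest value of both, although it was the second highest library in mitochondrial mRNA. The ratio of mt-Rnr2 to mt-Rnr1 stayed near 1, at 0.953, 1.06 and 0.878 in the controls and 1.05, 1.12 and 0.831 after radiotherapy. The rRNAs were 2.79, 2.36 and 2.43% of the summed rRNA and protein gene TPM in the controls. After radiotherapy they were 0.992 and 1.48% in libraries 1 and 2 but 2.53% in library 3, inside the control range. The labels name a TruSeq kit and total RNA, not how rRNA was removed, and how far that step sets these levels was not tested.

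**Figure D2:**
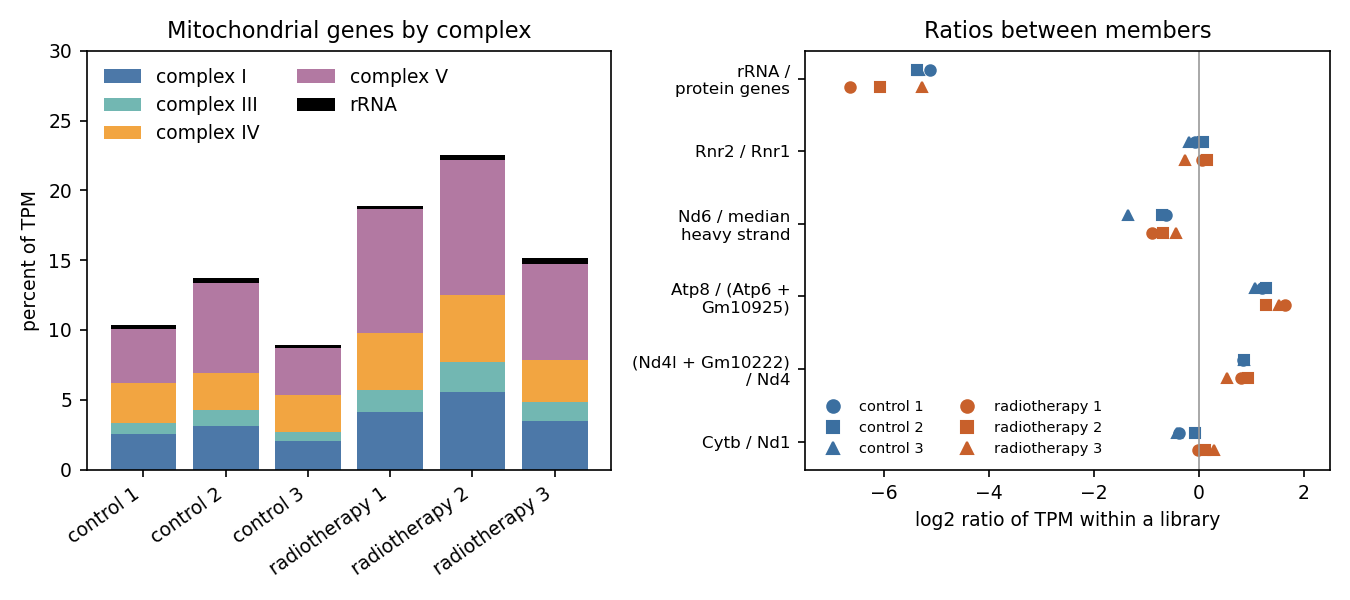
Left, percent of all TPM taken by mitochondrial genes in each library, stacked by respiratory complex with rRNA on top. Right, log2 ratios of TPM between members within each library (blue control, orange radiotherapy, shape by replicate). The radiotherapy bars, 18.9, 22.5 and 15.1%, all exceed the control bars, 10.4, 13.7 and 8.93%, and the rRNA to protein gene ratio is lower in radiotherapy 1 and 2 but not in radiotherapy 3.

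In 5 of the 7 pairs the copy carried more TPM than the mitochondrial gene in every library. The 7 copies made up 11.1, 13.3 and 11.7% of all TPM in the controls and 15.04, 19.96 and 12.6% after radiotherapy, overlapping between groups. Under Gm28661 stood 24141, 29981 and 22151 TPM in the controls and 42355, 52324 and 35029 TPM after radiotherapy. That is 96.0 ± 0.892% of the mt-Co2 pair in control and 96.4 ± 0.373% after radiotherapy, so nearly all TPM of that sequence was listed under the pseudogene. The copy held 94.9 ± 0.305% of the mt-Co3 pair in control, 90.7 ± 1.33% of the mt-Nd3 pair, 87.4 ± 2.34% of the mt-Nd4l pair and 86.2 ± 1.38% of the mt-Atp6 pair. In contrast Gm28439, which did not differ from the first 876 bases of mt-Nd4, was listed at 0 in all 6 libraries. A read from within such a sequence matches gene and copy equally, so the listed division depends on the counting method.

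The listed shares were themselves unequal between groups for 2 pairs. Gm10222 took 85.1, 87.4 and 89.8% of the mt-Nd4l pair in the controls and 82.2, 84.9 and 81.6% after radiotherapy. Gm29216 took 34.6, 41.9 and 42.6% of the mt-Co1 pair in the controls and 20.1, 24.9 and 32.1% after radiotherapy. These percentages are of TPM without a length weight. Gm29216 covers only 492 of the 1545 bases of mt-Co1, so its percentage does not divide 1 shared sequence. The radiotherapy percentages lay below all control percentages in both pairs, so the listed differences of mt-Nd4l and mt-Co1 include this shift in the listed shares.

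**Figure D3:**
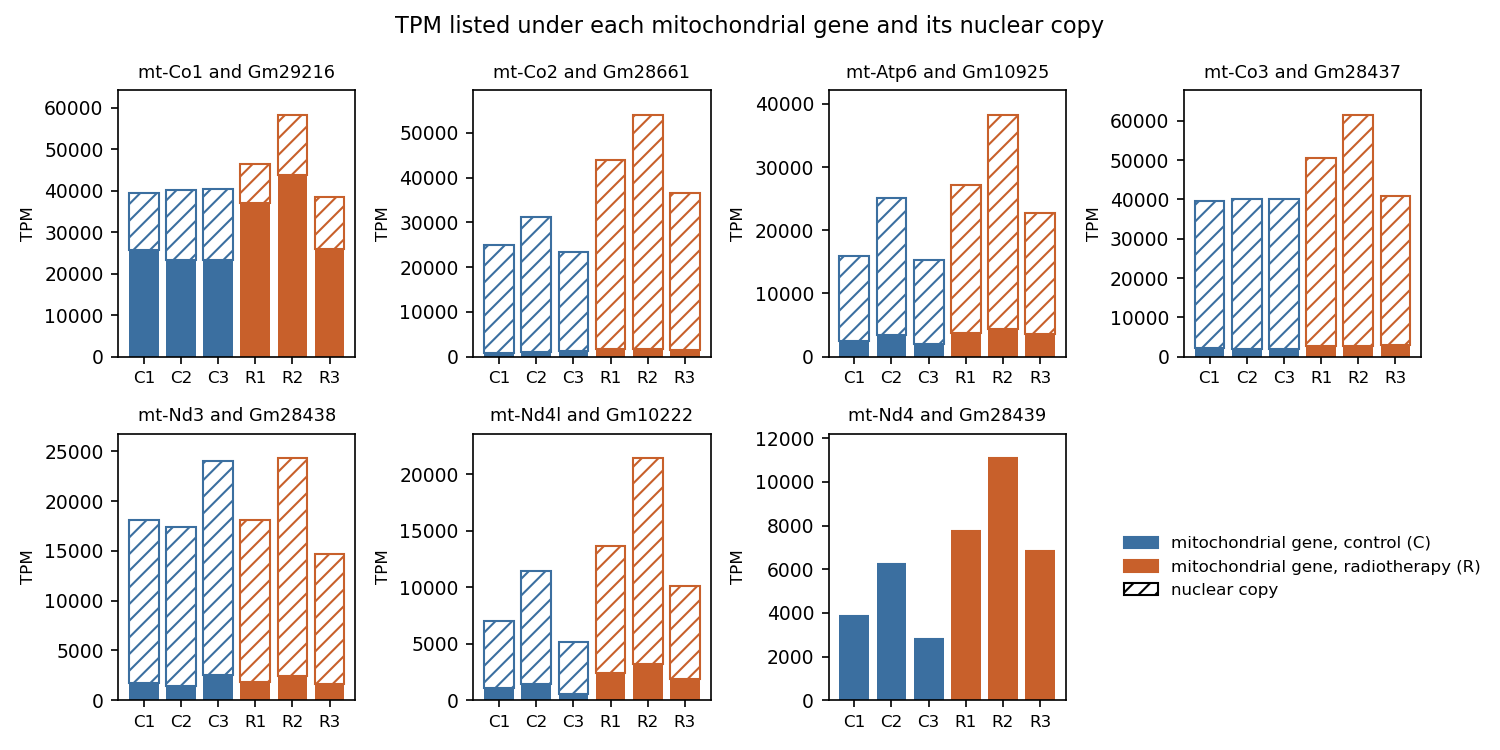
TPM listed under each mitochondrial gene (filled) and its copy on chromosome 1 (hatched), stacked, for controls 1 to 3 (C, blue) and radiotherapy 1 to 3 (R, orange). Most of each bar is hatched for mt-Co2, mt-Atp6, mt-Co3, mt-Nd3 and mt-Nd4l, and none of it is for mt-Nd4.

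Each gene was therefore also summed with its copy, the copy weighted by its length relative to the gene. The pair mt-Co2 and Gm28661 then stood at 24869, 30968 and 23219 TPM in the controls and 43787, 53836 and 36320.4 TPM after radiotherapy, with the groups apart (log2 fold change 0.75, SE 0.18). The mt-Co3 pair was at 39563, 39971 and 40070.3 TPM in the controls and at 50429.7, 61455 and 40835 TPM after radiotherapy (0.33, SE 0.16). The mt-Nd4l pair was at 6982, 11348 and 5079.9 TPM in the controls and 13524, 21231 and 10006 TPM after radiotherapy, where radiotherapy 3 lay below control 2. Its log2 fold change was 0.95, in place of 1.40 for the gene alone. The mt-Nd3 pair was at 18007, 17307 and 23854 TPM in the controls and 17974, 24127 and 14573 TPM after radiotherapy, a change of sign from 0.11 to −0.08 (95% interval −0.55 to 0.40). The pairs of mt-Co1 (0.41, SE 0.18) and mt-Atp6 (0.65, SE 0.24) kept their sign but had a radiotherapy value inside the control range.

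After summing, the groups stood apart for 8 of the 13 protein genes, in place of 11, and 3 of the 7 genes with a copy, in place of 6. In that fit radiotherapy lay wholly above control in 1.66% and wholly below in 7.55% of genes. The median of the 13 was again 0.82, the value of mt-Nd2, which was not summed with a copy. The 13 then ran from −0.08 to 1.22, in place of 0.11 to 1.40, and none passed limma (adjusted p of at least 0.978). The protein genes and the 7 copies together made up 21.2, 26.6 and 20.4% of all TPM in the controls and 33.7, 42.2 and 27.3% after radiotherapy. The 6 protein genes with under 50% of their windows in nuclear transcripts, which the division touches least, had a median log2 fold change of 0.96, from 0.56 to 1.22.

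**Figure D4:**
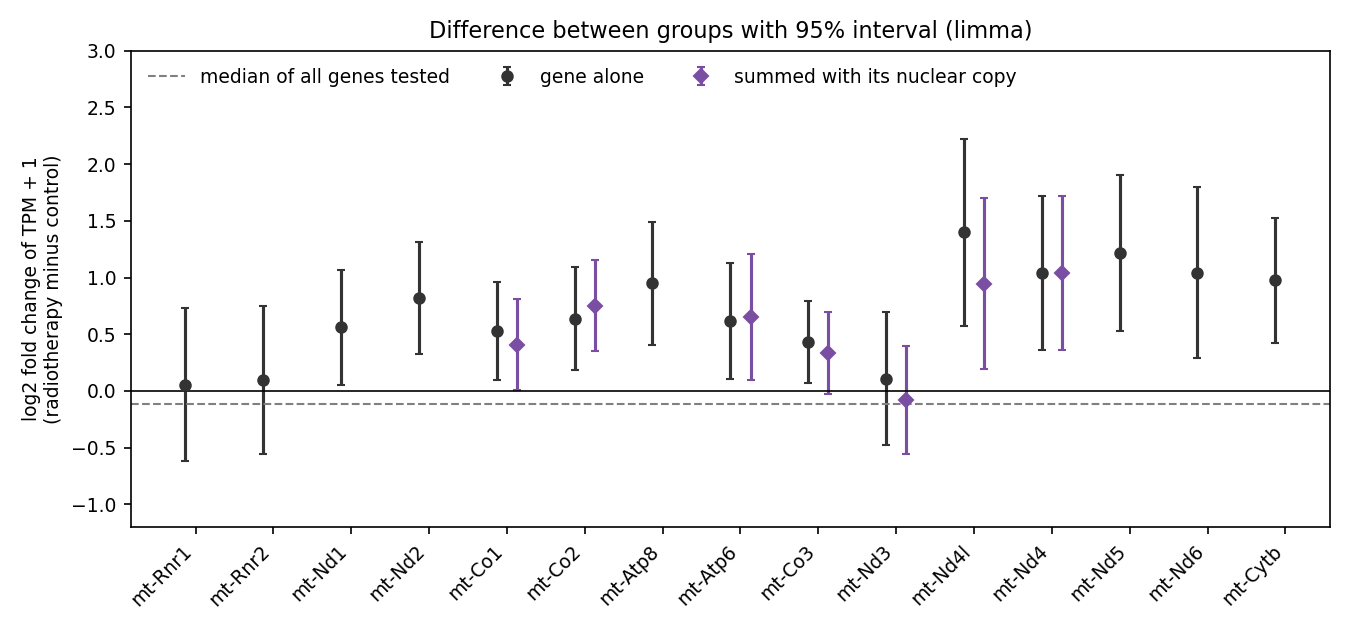
Log2 fold change of TPM + 1 (radiotherapy minus control) with its 95% interval from limma, for each gene alone (black circles) and, for the 7 genes with a copy on chromosome 1, summed with that copy (purple diamonds). The dashed line is the median of all genes tested, −0.11. Values run from 0.05 for mt-Rnr1 to 1.40 for mt-Nd4l, and summing lowers mt-Nd4l to 0.95 and mt-Nd3 to −0.08.

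Neighbours that share an mRNA became more alike once the copies were added. With Gm10222 the ratio of mt-Nd4l to mt-Nd4 was 1.80, 1.81 and 1.83 in the controls and 1.75, 1.92 and 1.46 after radiotherapy, where mt-Nd4l alone gave 0.188 to 0.315. With Gm10925 in the denominator the ratio of mt-Atp8 to mt-Atp6 was 2.30, 2.45 and 2.11 in the controls and 3.15, 2.43 and 2.88 after radiotherapy. The stretch of chromosome 1 has no annotated copy of mt-Atp8.

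The nuclear partners listed for these complexes did not show the same difference. For complex I the list held only 7 core subunits and left out its other nuclear subunits. Of 42 tested nuclear subunits of complexes I to V, 0 passed limma, 1 had an unadjusted p under 0.05 (3.82% of all genes did), 0 lay wholly above control (1.70%) and 2 wholly below (7.54%). Their median log2 fold change was −0.15, with 34 negative values, near the −0.11 of all genes. The 7 core complex I subunits had a median of −0.12. For complex IV, Cox8b, a muscle subunit, was at 3089, 2775 and 2832 TPM in the controls and 2307, 2299.5 and 2148 TPM after radiotherapy (−0.36, SE 0.16), with the groups apart. The other gene wholly below control was Cox6a2, also a muscle subunit of complex IV (−0.30, SE 0.16; named after its value was seen). Complex II, which has no mitochondrial gene, had a median of −0.29 over 4 genes, and Sdhb, its iron-sulfur subunit, gave −0.04 (SE 0.20). Complex III had a median of −0.24 over 9 genes, complex V one of −0.09 over 11. The ATP synthase β subunit Atp5b was at 2481, 2149 and 2498 TPM in the controls and 2341, 3020.0 and 2250.4 TPM after radiotherapy (0.09, SE 0.19), with the groups overlapping.

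Genes that make and keep mitochondrial RNA mostly overlapped between groups. The 9 genes of transcription, which include the polymerase Polrmt and the promoter factor Tfam, summed to between 108 and 136 TPM in the controls and between 93.6 and 127 TPM after radiotherapy, with a median log2 fold change of −0.17. Tfb2m, the factor that opens the promoter, had the highest level, at 18.0, 22.8 and 22.9 TPM in the controls and 19.1, 12.9 and 24.8 TPM after radiotherapy. Mterf2, of the termination factor family, had the smallest p of that list (−0.47, SE 0.27, limma adjusted p = 0.977). The 22 genes of RNA processing and stability had a median of −0.11. Of them 1 lay wholly below control, where 7.54% of all genes tested did. It was Grsf1, an RNA-binding protein of mitochondrial RNA granules (−0.25, SE 0.23, named after its value was seen). Among the 22 genes, Supv3l1, the helicase of the mitochondrial RNA degradosome, gave 0.42 (SE 0.27). Hsd17b10, a subunit of the RNase P that cuts out tRNAs, gave 0.07 (SE 0.24). The 7 genes of genome copying had a median of −0.06. Their most abundant was Ssbp1, the single-strand binding protein, at 41.5, 36.98 and 44.7 TPM in the controls and 44.5, 49.3 and 78.03 TPM after radiotherapy. No gene of these 3 lists passed limma or had an unadjusted p under 0.05.

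Of 7 lists of fibre and other cell markers, the muscle fibre and erythroid lists lay apart between the groups, no marker passed limma, and their part in the result was not tested. The 6 muscle fibre markers, among them the fast myosin Myh4 and the creatine kinase Ckm, summed to 109789 to 114103 TPM in the controls. After radiotherapy they summed to 51204 to 90345 TPM, lowest in radiotherapy 2. Of these markers 6 of 6 lay wholly below control, against 7.54% of all genes tested. The sum of 6 slow or oxidative fibre markers was 606 to 1709.7 TPM in the controls, lowest in control 3, and 1209 to 1508 TPM after radiotherapy. For 5 erythroid genes the sums were 3352 to 7203 and 929.8 to 1618 TPM, with 5 of 5 wholly below control (7.54% of all genes). Of 6 leukocyte markers 4 were tested and none lay wholly apart (sums 135 to 885 and 71.5 to 404 TPM). The same held for 4 of 5 adipocyte markers (263 to 845 and 573 to 2242 TPM), 4 of 4 endothelial (59.7 to 80.9 and 60.3 to 88.9 TPM) and 3 of 4 fibroblast markers (79.8 to 142 and 81.4 to 117 TPM). No marker was at 0 in every library. Median log2 fold changes were −0.67 for muscle fibre, 0.49 for slow or oxidative fibre, −1.81 for erythroid and −0.40 for leukocyte markers. They were 1.25 for adipocyte, 0.04 for endothelial and −0.17 for fibroblast markers. TPM has a fixed total, so a larger share for one set of genes goes with a smaller share for the others.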

How the data were processed

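Gastrocnemius RNA of 3 control and 3 radiotherapy samples was sequenced from total RNA with a TruSeq kit, per the labels' protocols, and grouped by the treatment in the labels. The authors deposited 1 table of TPM values (57010 genes, 1 column per sample). The submitters' processing notes name HISAT2, StringTie, RSEM and mm9; their roles and versions, the annotation, strandedness and depth are not stated there. Each column summed to 1000000 within 0.64, and no columns were identical. Here TPM was transformed to log2(TPM + 1), which understates changes of low genes. Genes reaching 1 TPM in 3 or more samples were tested with limma 3.58.1 in R 4.3.3 (trend, two-sided, group only, Benjamini-Hochberg, threshold 0.05), which was tested on simulated data. No count model was used. Shares and ratios are descriptions without a test. All 37 members and a gene of smallest p or highest level of other lists are named (some are not reported here); members and lists were chosen with earlier results of these data known. Sequences came from GENCODE M21 transcripts (GRCm38) by name, and windows of 50 bases were searched on both strands. Figures used matplotlib 3.10.9. Alternatives covered the pseudocount, filter, scaling, variance model, replicate number as a block and each sample left out; summing genes with nuclear copies was added after the data were seen. Other cell type and pathway lists are given by counts and medians.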

Additional observations from a re-analysis of the deposited data

How the results depend on the processing

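No mitochondrial gene was called by limma under any alternative run. The lowest adjusted p of a member was 0.446 (mt-Atp8, without control replicate 2). The fold changes of the 12 protein genes other than mt-Nd3 were positive in 192 of 192 refits. The filter, variance model and block settings leave each fold change as it was, so those refits could not change a sign. Summing likewise leaves genes without a copy unchanged. The count also comes from the contrast the set was selected on. Over all genes 1, not mitochondrial, was called without control 1 or without radiotherapy 1 and 0 under the others (range 0 to 1). Median-of-ratios scaling left 7 and quantile normalization 8 of the 13 protein genes with groups apart, and summing with the nuclear copies 8. With TPM rescaled to the total without mitochondrial genes and copies the median of the 13 was 1.06. Leaving out single samples gave 11 to 12 genes apart and a median of 0.64 to 0.97. Groups that stand apart cannot overlap once a sample is dropped, so that count could not fall below 11. In those refits radiotherapy lay wholly above control in 2.36 to 5.56% of all genes and wholly below in 8.21 to 30.7%. The protein gene difference of 7.83 percentage points was 11.7 with the copies added, 3.91 without mt-Atp8 and mt-Nd4l, and 6.00 to 9.73 with a sample left out. Values that changed sign with a sample left out were those of mt-Rnr1 (−0.21 to 0.38), mt-Rnr2 (−0.10 to 0.39), mt-Nd3 (−0.091 to 0.35; −0.078 summed with its copy), the rRNA share (−0.016 to 0.081 percentage points), and the log2 ratios of mt-Nd6 to the heavy-strand median (−0.0067 to 0.35) and of mt-Rnr2 to mt-Rnr1 (−0.041 to 0.17); the rRNA to protein gene log2 ratio was −1.08 to −0.39. The negative values came without control 3, radiotherapy 2 or radiotherapy 3 for each rRNA gene, without control 2 or radiotherapy 2 for mt-Nd3, without control 3 or radiotherapy 3 for the rRNA share, and without control 3 (for mt-Rnr2 to mt-Rnr1 also radiotherapy 2) for the ratios. The cause was not tested. Over all genes tested, same-numbered samples did not deviate together (correlations of −0.06, 0.02 and −0.11). This does not settle whether the numbers pair the samples for the mitochondrial genes. With the replicate number as a block limma called 0 genes. The SE of mt-Cytb fell from 0.24 to 0.13 and that of mt-Nd4 from 0.30 to 0.16, while that of mt-Nd3 rose from 0.26 to 0.28. A block cannot alter the fold changes or the TPM, so the median of 0.82 and the 11 genes apart were fixed in advance. Depth is unknown, so no counting error or detection limit can be given.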

Other observations

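The ratio of mt-Cytb, the last protein gene of the heavy-strand transcript, to mt-Nd1, the first, was 0.774, 0.958 and 0.751 in the controls and 0.998, 1.08 and 1.23 after radiotherapy, with the groups apart. The pair was chosen after its values were seen, and neither gene has a 50-base window in a nuclear transcript. A single scaling factor per library does not alter this ratio. Of 3 nuclear-retained RNAs, Malat1 was at 107, 183 and 55.4 TPM in the controls and 171, 366 and 438 TPM after radiotherapy, with radiotherapy 1 inside the control range (log2 fold change 1.54, SE 0.47, limma adjusted p = 0.977). The groups also overlapped for Neat1 (0.41, SE 0.32) and Meg3, whose difference had the other sign (−0.078, SE 0.54).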
